A study of Homo sapiens with 8 samples.

Results

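The clustered histone genes were examined in docetaxel-resistant and docetaxel-sensitive cells of DU145 and PC3, 2 established androgen-independent prostate cancer lines. Members were the genes whose symbol starts with HIST1H, HIST2H, HIST3H or HIST4H, and 89 of the 60554 gene rows met this rule. They comprised 8 H1, 22 H2A, 26 H2B, 17 H3 and 16 H4 genes, of which 65 lie on chromosome 6, 21 on chromosome 1, 2 on chromosome 13 and 1 on chromosome 12. Of the 89 members, 39 had 10 or more counts in at least 2 libraries (4 H1, 7 H2A, 15 H2B, 7 H3 and 6 H4), 50 did not, and 20 of these 50 had no count in any library.

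The data were bulk RNA sequencing counts of 8 libraries, 2 in each of 4 groups: DU145 resistant, DU145 sensitive, PC3 resistant and PC3 sensitive. Resistant cells were kept in 10 nM docetaxel, a drug that stabilises microtubules, and sensitive cells in 0.1% DMSO, all in the same serum-containing medium. The resistant cells of each line derive from the parental line, and no source tells whether a group's 2 libraries are separate cultures. The p-values below therefore cover no more than the spread of these libraries, perhaps a technical one. For these bulk samples, any withdrawal of docetaxel before RNA was taken was not stated.

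Replication-dependent histone genes lie in clusters, the largest on chromosome 6, and supply the nucleosome core (H2A, H2B, H3, H4) and the linker histone H1 while DNA is copied in S phase. Most of their mRNAs carry no poly(A) tail: they end just after a short stem-loop, which the stem-loop binding protein SLBP holds through processing, export and translation. Some members also make longer, polyadenylated transcripts, and cDNA in SMART-seq chemistry is primed from poly(A) tails, so the counts need not follow the whole histone mRNA pool. How much of that pool these libraries captured was not tested.

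Total counts ranged from 31685148 to 43045127 per library. The epithelial markers EPCAM, KRT8 and KRT18 were present in every library (EPCAM at 17.5 to 53.4 CPM, that is counts per 1000000 of the library's total), and CTNNA1, known to be lost in PC3, had 2.14 to 3.25 CPM in PC3 against 483 to 567 CPM in DU145. In DU145 resistant cells KRT8 had 27.2 and 30.8 CPM, against 2150 and 1271 CPM in DU145 sensitive cells, and CDH1 had 0.351 and 0.490 CPM against 24.0 and 21.3 CPM. Of 4 markers of other cell types, CD3E was at 0 throughout and PECAM1 was present in PC3, so that the summed level of the 4 was 0.835 to 1.23 CPM in DU145 resistant, 1.04 to 1.14 CPM in DU145 sensitive, 13.6 to 25.5 CPM in PC3 resistant and 7.01 to 7.83 CPM in PC3 sensitive libraries. The part of these differences in the histone results was not tested.

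Searching the hg38 sequence of each gene for the histone stem-loop found it in all 71 protein-coding members and in 1 of 18 members annotated as pseudogenes. It is printed here for the member with most counts in each class and for HIST2H4B, an H4 gene that was lower in the resistant cells of both lines; capitals mark the stem-loop and lower case its 7 flanking bases on each side, 5′ to 3′ on the gene's strand.
HIST1H1C, chr6:26055737-26055766, minus strand: cccaaaaGGCTCTTTTCAGAGCCaccactg
HIST1H2AC, chr6:26124662-26124691, plus strand: acccaaaGGCTCTTTTCAGAGCCcccctac
HIST2H2BE, chr1:149886181-149886210, minus strand: ctccaaaGGCTCTTTTCAGAGCCacccacc
HIST1H3H, chr6:27810509-27810538, plus strand: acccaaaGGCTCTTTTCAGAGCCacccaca
HIST1H4H, chr6:26285124-26285153, minus strand: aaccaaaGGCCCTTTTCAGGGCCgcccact
HIST2H4B, chr1:149860762-149860791, minus strand: tcccaaaGGCCCTTTTTAGGGCCgaccact
All 15 H4 stem-loops opened with GGCCCT, and 55 of the 56 others with GGCTCT; the exception was HIST1H2AK. The form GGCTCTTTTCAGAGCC was the commonest, in 41 members of the H1, H2A, H2B and H3 classes, and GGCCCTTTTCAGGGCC came next among H4 genes with 10.

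The 89 genes together reached 178 and 177 CPM in DU145 resistant libraries, against 242 and 328 CPM in DU145 sensitive libraries (177 ± 0.702 and 285 ± 60.4 CPM, mean ± SD, n = 2 each). They reached 145 and 122 CPM in PC3 resistant libraries, against 233 and 251 CPM in PC3 sensitive libraries (133 ± 16.5 and 242 ± 12.6 CPM, n = 2 each). In both lines the resistant libraries lay below both sensitive ones, at 0.623 times the sensitive mean in DU145 and 0.552 times in PC3. In bulk RNA, fewer cells with histone mRNA and less of it per cell cannot be told apart. With 2 libraries against 2, the smallest p that an exact two-sided permutation test of such a sum can give is 0.333. These sums are therefore given without a test. Summing also leaves them independent of how counted reads were divided among near-identical members. Reads lost in counting, or given to overlapping genes that are not members, would be missing from the sums, and this was not tested.

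All 5 classes were lower in the resistant cells by summed level. H2A genes summed to 24.6 ± 1.43 CPM in DU145 resistant and 56.8 ± 15.98 CPM in DU145 sensitive cells, a log2 ratio of -1.20, and to 42.9 ± 2.35 CPM in PC3 resistant and 79.6 ± 2.45 CPM in PC3 sensitive cells, a log2 ratio of -0.89 (SD, n = 2 each). The log2 ratio of the H2B sum was -0.90 in DU145 and -0.79 in PC3, and that of the H4 sum was -0.40 in DU145 and -0.97 in PC3. The H3 sum, the smallest at 4.92% of all histone CPM, had log2 ratios of -0.44 in DU145 and -0.65 in PC3. H1, the linker class, had log2 ratios of -0.46 in DU145 and -0.92 in PC3, but HIST1H1C alone made up 98.2% of the H1 sum, and without it the ratios were -0.13 in DU145 and 0.18 in PC3. In every class and both lines the 2 resistant libraries lay below the 2 sensitive ones.

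**Figure D1:**
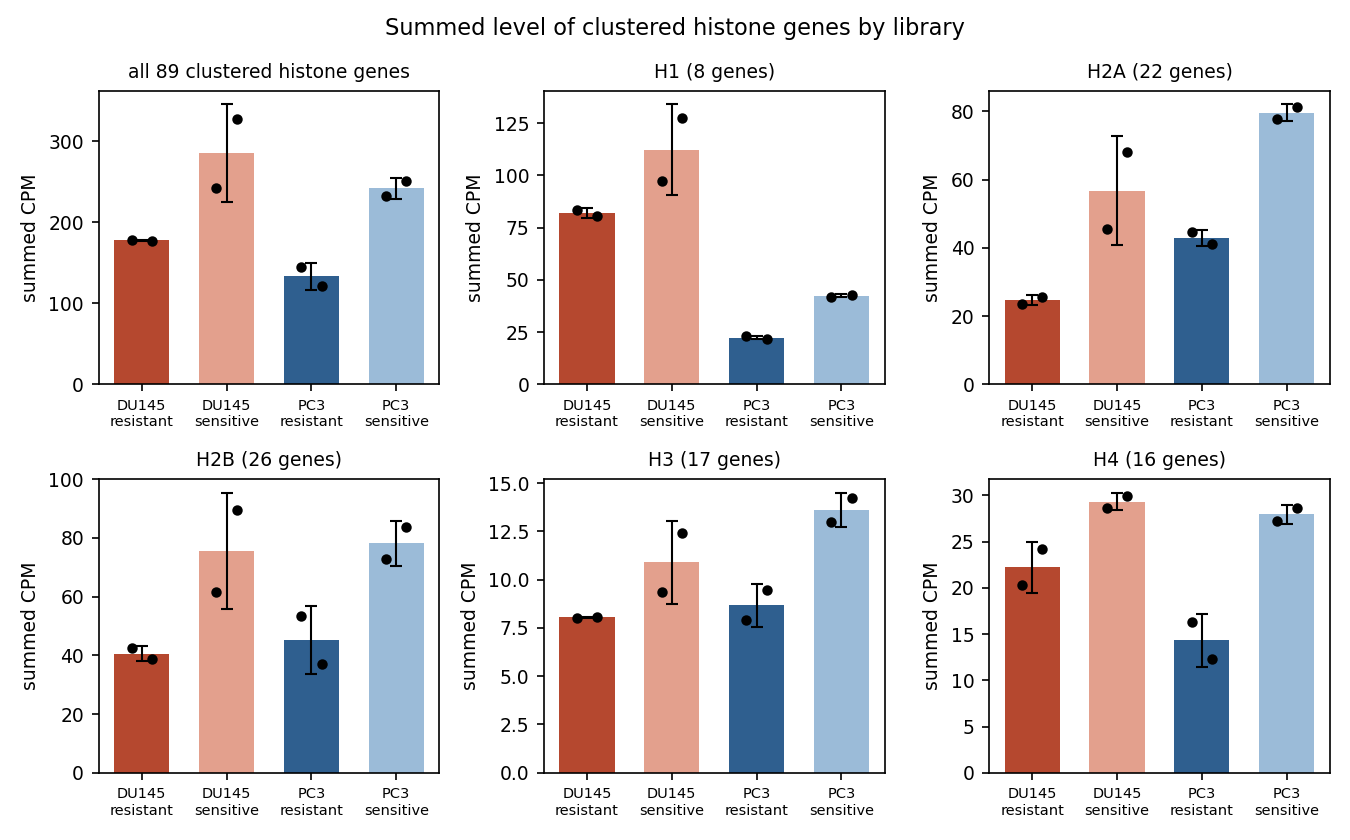
Summed CPM (vertical axis, from 0) of all 89 clustered histone genes and of each class in the 4 groups; points are the 2 libraries, bars their mean and error bars the SD. The resistant libraries sit below the sensitive ones in every panel, and the DU145 sensitive libraries lie furthest apart, at 242 and 328 CPM in the panel of all genes.

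A few genes carried most of the signal. The 5 highest members held 63.3% of all histone CPM, and 36 members passed the filter on low counts and were tested (3 H1, 7 H2A, 15 H2B, 6 H3 and 5 H4); the other 53 were not. Per kilobase of annotated exon, HIST1H1C led at 87.0 CPM per kb over the 8 libraries, followed by HIST1H2AC at 20.8, HIST1H2BK at 19.8, HIST1H4I at 15.2 and HIST1H2AG at 11.3 CPM per kb. HIST1H3H, the highest H3 gene with an annotated exon length, stood at 4.43 CPM per kb. The levels of HIST1H2AC and HIST1H2BK per kb cannot be ordered, since HIST1H2AC alone ranged from 15.3 to 54.8 CPM between libraries.

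No member was called higher in resistant cells of either line. Log2 fold changes were above 0 for 6 members in DU145 and 5 in PC3, none of them called. In DU145, 10 of the 36 tested members fell at an adjusted p under 0.05 (27.8%) and 0 rose, where 15.4% of all 20238 tested genes fell and 12.4% rose (edgeR quasi-likelihood test, Benjamini-Hochberg adjustment over all tested genes). The count is 9 without HIST1H3G, which entered the test only through its level in DU145 sensitive libraries. HIST1H2BE, also among the 10, reached the level of the low-count filter in the sensitive libraries of both lines and in no resistant library. The median log2 fold change was -0.51 over the 36 members and 0.00 over all tested genes. In PC3, 14 of the 36 fell (38.9%) and 0 rose, where 17.0% of all tested genes fell and 18.6% rose, and the median log2 fold change was -0.94 over the members and 0.01 over all tested genes. With no adjustment, 13 members fell and 0 rose in DU145 at p under 0.05, and 17 fell and 0 rose in PC3; DESeq2 gave 7 and 12 members lower, and 0 higher in either line. Leaving out members with at most 3 counts in both groups of a line, the median was -0.66 over 34 members in DU145 and -0.99 over 35 in PC3.

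The DU145 count depended on single libraries. It was 3 without DU145 sensitive replicate 2, 5 without DU145 resistant replicate 1, 4 without DU145 resistant replicate 2, and 6 without either of the PC3 sensitive libraries; the PC3 count was 7 without PC3 resistant replicate 2 and 9 without PC3 sensitive replicate 2.

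**Figure D2:**
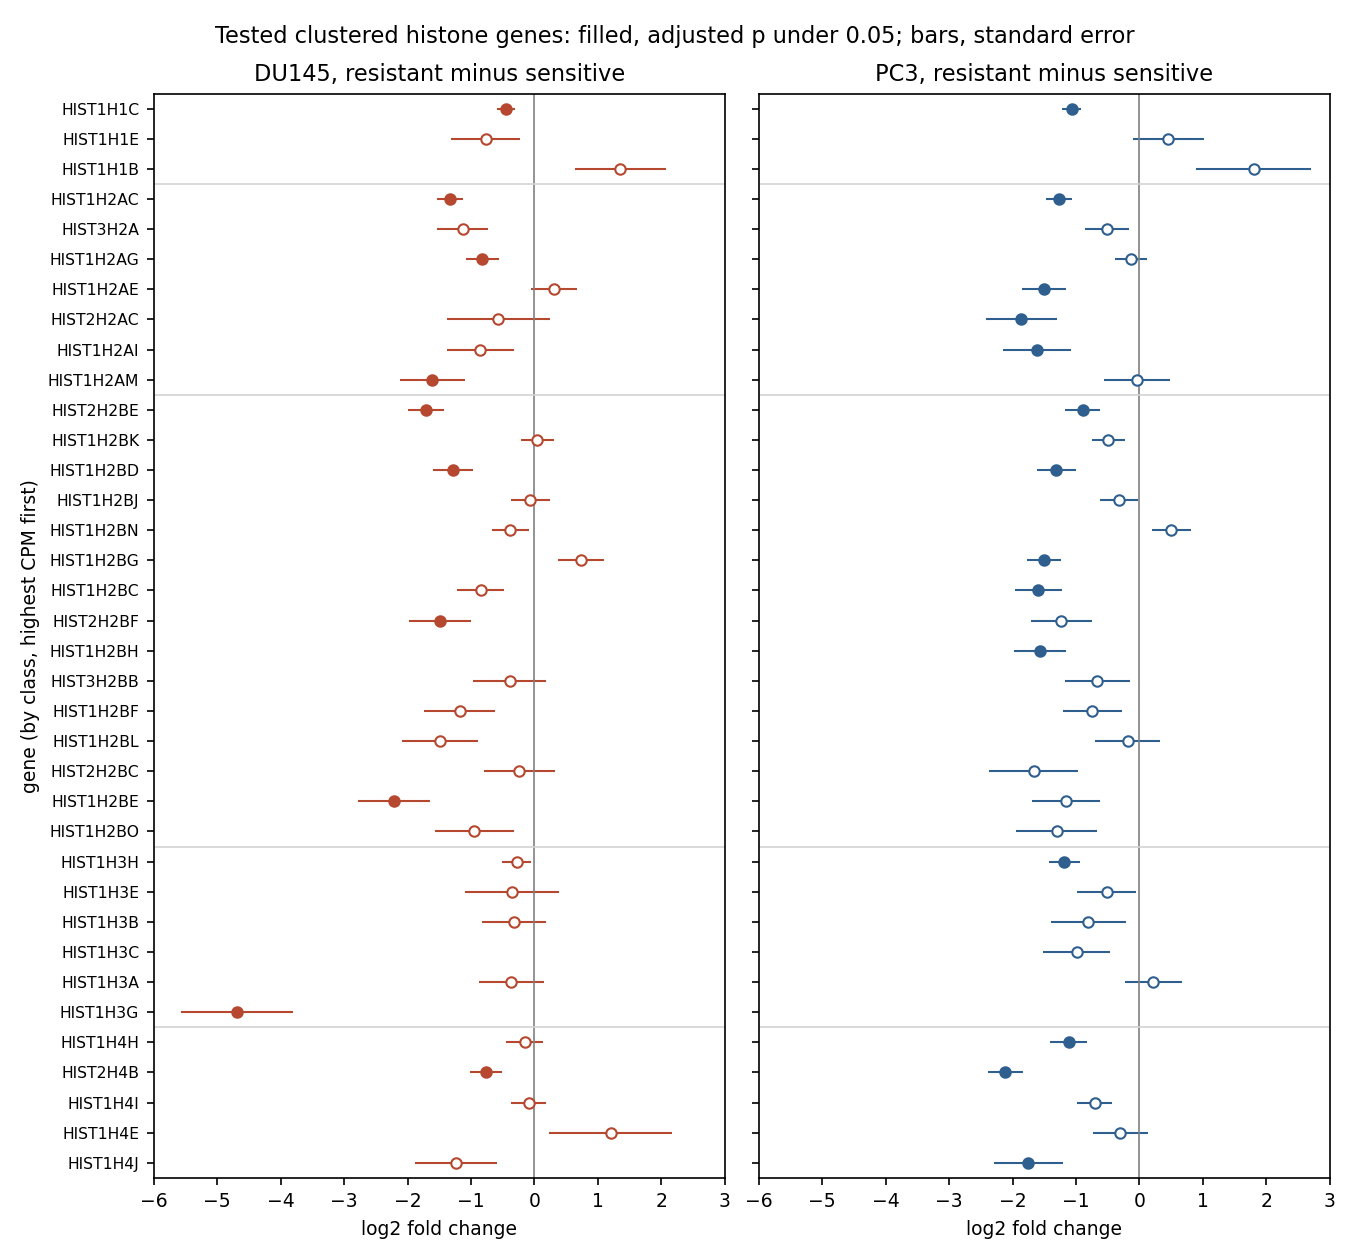
Log2 fold change (horizontal axis) of resistant over sensitive cells for each tested member in DU145 (left) and PC3 (right), grouped by class with the highest CPM first; bars are standard errors, filled points had an adjusted p under 0.05, and a gene with at most 3 counts in both groups of a line has no point there. All 10 filled points in DU145 and all 14 in PC3 lie left of 0; HIST1H3G in DU145, furthest left, passed the low-count filter through the DU145 sensitive libraries alone.

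By class, the linker histones gave 1 call per line, the same gene in both. The H2A genes gave 3 calls among 7 tested in DU145 and 4 in PC3, and the H2B genes 4 among 15 in DU145 and 5 in PC3. The H3 genes gave 1 call among 6 in each line, HIST1H3G in DU145 and HIST1H3H in PC3. HIST1H3G passed the low-count filter only through its level in DU145 sensitive libraries. The H4 genes gave 1 call among 5 in DU145 and 3 in PC3. Over all tested genes 15.4% fell in DU145 and 17.0% in PC3. The H3 shares are near these, and the H4 share in DU145 is not far above. The classes were not tested against these shares. In all, 19 members fell in at least 1 line, HIST1H3G among them, and 5 fell in both, which is 5 of the 10 DU145 calls and 35.7% of the 14 PC3 calls: HIST1H1C, HIST1H2AC, HIST1H2BD, HIST2H2BE and HIST2H4B. The shares of all tested genes that fell in both lines, or in at least 1, were not worked out, so these counts are a description.

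HIST1H1C (named H1-2 in RefSeq, chr6:26055740-26056470) encodes a linker histone, which binds DNA where it enters and leaves the nucleosome. It had 82.7 and 79.1 CPM in DU145 resistant libraries, against 96.0 and 126 CPM in DU145 sensitive libraries. In PC3 it had 21.9 and 20.3 CPM in resistant libraries, against 40.8 and 41.7 CPM in sensitive libraries. The groups did not overlap in either line, and the fall was steeper in PC3 (log2 fold change -1.07 ± 0.15 SE, adjusted p = 0.000422) than in DU145 (-0.45 ± 0.15 SE, adjusted p = 0.0455). The PC3 call was kept in each of 8 fits that left out 1 library, but the DU145 call was kept in 1 of the 8, and it was also lost under RLE scaling and with DESeq2.

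HIST1H2AC (H2AC6, chr6:26124145-26139116), with 68.0% of the H2A sum, had 15.3 and 19.4 CPM in DU145 resistant libraries, against 33.6 and 54.6 CPM in DU145 sensitive libraries. It had 24.6 and 23.2 CPM in PC3 resistant libraries, against 52.0 and 54.8 CPM in PC3 sensitive libraries. The falls were of like size in the 2 lines, -1.34 ± 0.21 (SE) in DU145 with adjusted p = 0.000936 and -1.26 ± 0.21 in PC3 with adjusted p = 0.000932 by edgeR. The difference between them was 0.07 ± 0.29 on the log2 scale, and both calls were kept whichever library was left out.

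HIST2H2BE (H2BC21, chr1:149884459-149886682), with 26.8% of the H2B sum, had 10.6 and 7.43 CPM in DU145 resistant libraries, against 23.7 and 36.3 CPM in DU145 sensitive libraries. Its PC3 values were 10.7 and 7.62 CPM in resistant libraries, against 13.7 and 18.1 CPM in sensitive libraries. The gene fell by 1.71 on the log2 scale in DU145 (SE 0.28, adjusted p = 0.00134) and by 0.89 in PC3 (SE 0.28, adjusted p = 0.0288, edgeR). HIST1H2BD (H2BC5, chr6:26158122-26171349), another H2B gene, had 4.03 and 5.50 CPM in DU145 resistant libraries, against 8.93 and 14.4 CPM in DU145 sensitive libraries. In PC3 it had 6.55 and 3.76 CPM in resistant libraries, against 12.1 and 11.8 CPM in sensitive libraries. It fell by 1.28 in DU145 (SE 0.31, adjusted p = 0.0109) and by 1.31 in PC3 (SE 0.31, adjusted p = 0.00734), and neither H2B gene's groups overlapped in either line.

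HIST2H4B (H4C15, chr1:149854045-149861159) had 6.78 and 9.16 CPM in DU145 resistant libraries, against 12.8 and 14.2 CPM in DU145 sensitive libraries. It had 1.23 and 1.63 CPM in PC3 resistant libraries, against 4.84 and 6.75 CPM in PC3 sensitive libraries, the lowest levels being those of PC3 resistant cells. The log2 fold change was -0.76 ± 0.25 (SE) with adjusted p = 0.0426 in DU145, and -2.11 ± 0.27 with adjusted p = 0.000227 in PC3 (edgeR). The PC3 call was kept in all 8 fits that left out 1 library and the DU145 call in 2 of the 8. Its exons share 100% of their 50-base windows with other members, and its copy HIST2H4A had 0 counts in every library, so the value may stand for both copies.

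**Figure D3:**
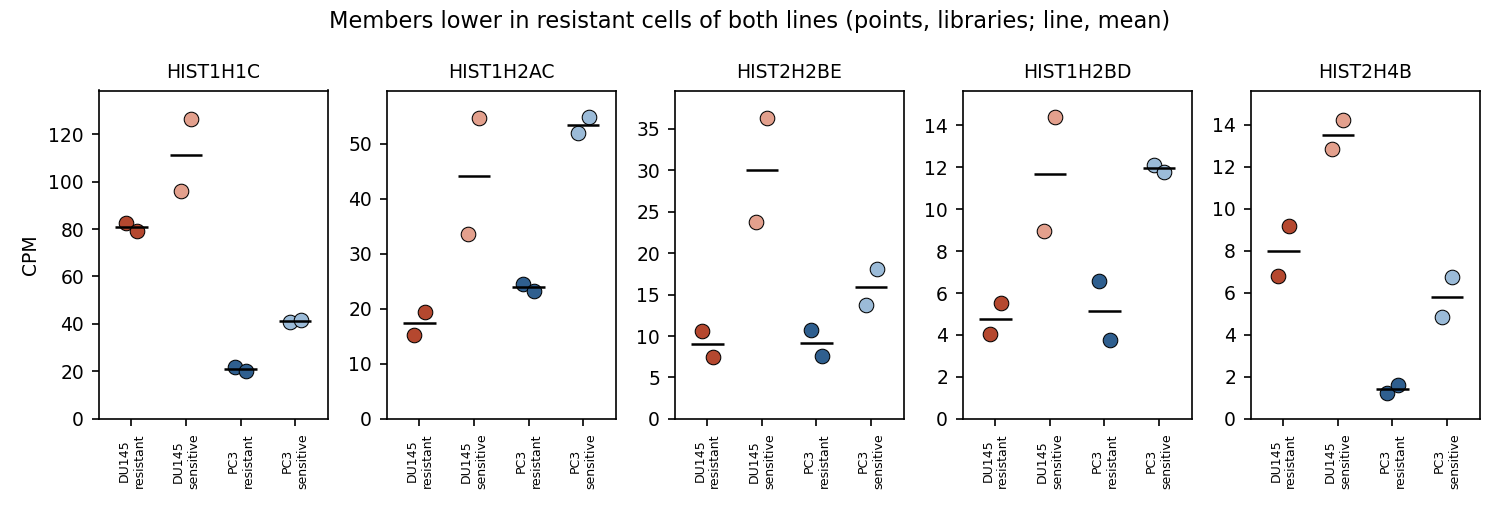
CPM (vertical axis, from 0) of the 5 members that fell in both lines, by group; points are the 2 libraries of a group and the line is their mean. In each gene the resistant libraries of a line lie below its sensitive libraries, and HIST1H1C reaches at most 41.7 CPM in PC3, against 126 CPM in DU145.

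The other 5 genes called in DU145 were not called in PC3. HIST1H2AG, an H2A gene, had 4.18 and 3.05 CPM in DU145 resistant libraries, against 6.51 and 6.38 CPM in DU145 sensitive libraries (log2 fold change -0.82, adjusted p = 0.0378, edgeR). Its PC3 values overlapped, at 6.60 and 5.42 CPM in resistant and 6.28 and 6.03 CPM in sensitive libraries. HIST2H2BF, an H2B gene of the chromosome 1 cluster, had 0.993 and 0.979 CPM in DU145 resistant libraries, against 1.59 and 4.03 CPM in DU145 sensitive libraries (-1.49, adjusted p = 0.0431), the 2 sensitive libraries being far apart. In PC3 it had 1.28 and 0.830 CPM in resistant libraries, against 1.59 and 3.06 CPM in sensitive libraries. Neither HIST1H2AG nor HIST2H2BF was called with DU145 fitted alone.

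The other 3 rested on few counts. HIST1H2BE had 5 and 4 counts in DU145 resistant libraries, against 17 and 27 in DU145 sensitive libraries (log2 fold change -2.21, adjusted p = 0.0147, edgeR), and 8 and 9 counts in PC3 resistant against 16 and 13 in PC3 sensitive libraries. HIST1H2AM had 8 and 10 counts in DU145 resistant libraries, against 34 and 23 in DU145 sensitive libraries (-1.61, adjusted p = 0.0392). It had 20 and 11 counts in PC3 resistant and 15 and 9 in PC3 sensitive libraries, and 67.8% of its 50-base windows are shared with other members. Neither call was made by DESeq2. HIST1H2AM was also not called with DU145 fitted alone, and its DU145 value ranged from -1.87 to -1.29 when 1 library was left out.

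HIST1H3G, an H3 gene, was counted almost only in DU145 sensitive libraries. It had 0 and 2 counts in DU145 resistant libraries, against 29 and 30 in DU145 sensitive libraries, and 1 and 0 counts in PC3 resistant and 0 and 0 in PC3 sensitive libraries. It passed the filter on low counts through the DU145 sensitive libraries alone, so that any gene kept in this way had to differ, and its values are a description. The ratio of CPM over the summed libraries, DU145 resistant over DU145 sensitive, was 0.0348 with a 95% exact interval of 0.00411 to 0.131, which covers counting error only.

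The other 9 genes called in PC3 were not called in DU145. HIST1H3H (H3C10, chr6:27810051-27811300), which held 53.7% of the H3 sum, had 2.81 and 2.44 CPM in PC3 resistant libraries, against 5.47 and 5.68 CPM in PC3 sensitive libraries (log2 fold change -1.19, SE 0.24, adjusted p = 0.00369, edgeR). In DU145 it had 6.60 and 5.93 CPM in resistant libraries, against 6.87 and 8.51 CPM in sensitive libraries. HIST1H4H (H4C8, chr6:26277609-26285638), with 35.0% of the H4 sum, had 7.41 and 4.64 CPM in PC3 resistant libraries, against 11.6 and 12.8 CPM in PC3 sensitive libraries (-1.12, SE 0.29, adjusted p = 0.012). Its DU145 groups overlapped, at 5.20 and 8.64 CPM in resistant and 8.41 and 6.93 CPM in sensitive libraries.

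HIST1H2BG, HIST1H2BC, HIST1H2AE and HIST1H2BH were H2B or H2A genes of the chromosome 6 cluster, each with 37 or more counts in every PC3 library. HIST1H2BG had 5.06 and 4.43 CPM in PC3 resistant libraries, against 10.2 and 15.1 CPM in PC3 sensitive libraries (log2 fold change -1.51, SE 0.27, adjusted p = 0.00147, edgeR). In DU145 it was low and went the other way, at 0.643 and 0.864 CPM in resistant against 0.417 and 0.489 CPM in sensitive libraries, without a call (adjusted p = 0.156). HIST1H2BC had 3.81 and 1.63 CPM in PC3 resistant libraries, against 7.07 and 8.30 CPM in PC3 sensitive libraries (-1.59, SE 0.37, adjusted p = 0.00705), and 3.10 and 2.28 CPM in DU145 resistant against 4.48 and 5.29 CPM in DU145 sensitive libraries. Of the 19 called members, 6 have exons that overlap another annotated gene, so reads of the 2 may not be separable: HIST1H2BC (HFE, opposite strand, and an unnamed gene), HIST2H2BF (FCGR1A, opposite strand), HIST1H2AM (the histone gene H3C12, same strand), and HIST1H2AC, HIST1H2BE and HIST1H4H (unnamed genes). The strand setting of the counting is unknown.

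HIST1H2AE had 0.976 and 1.01 CPM in PC3 resistant libraries, against 2.46 and 2.81 CPM in PC3 sensitive libraries (log2 fold change -1.50, SE 0.35, adjusted p = 0.00733, edgeR). In DU145 its groups overlapped, at 1.02 and 1.53 CPM in resistant and 0.807 and 1.27 CPM in sensitive libraries. HIST1H2BH had 1.02 and 0.959 CPM in PC3 resistant libraries, against 2.92 and 2.56 CPM in PC3 sensitive libraries (-1.57, SE 0.41, adjusted p = 0.0121). It was all but absent from DU145, with 0 and 1 counts in resistant and 0 and 1 counts in sensitive libraries.

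The remaining PC3 calls had lower counts or shared sequence. HIST2H2AC had 14 and 22 counts in PC3 resistant libraries, against 59 and 42 in PC3 sensitive libraries (log2 fold change -1.86, adjusted p = 0.0251, edgeR), and 8 and 1 counts in DU145 resistant against 7 and 7 in DU145 sensitive libraries. HIST1H2AI had 13 and 9 counts in PC3 resistant libraries, against 22 and 29 in PC3 sensitive libraries (-1.61, adjusted p = 0.0387), and 19 and 8 in DU145 resistant against 29 and 22 in DU145 sensitive libraries. HIST1H4J had 18 and 8 counts in PC3 resistant libraries, against 33 and 33 in PC3 sensitive libraries (-1.75, adjusted p = 0.0277), and 4 and 7 in DU145 resistant against 19 and 8 in DU145 sensitive libraries. HIST1H2AI shares 63.5% and HIST1H4J 92.1% of its 50-base windows with other members, so the split of reads between copies is uncertain, and DESeq2 called neither.

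Several abundant members were not called in either line. HIST1H2BK, the highest H2B gene per kilobase, had 13.1 and 9.13 CPM in DU145 resistant against 10.6 and 11.2 CPM in DU145 sensitive libraries, and 8.78 and 6.04 CPM in PC3 resistant against 10.4 and 8.99 CPM in PC3 sensitive libraries. HIST1H4I had 7.60 and 5.67 CPM in DU145 resistant against 6.43 and 7.85 CPM in DU145 sensitive libraries, and 4.58 and 3.63 CPM in PC3 resistant against 7.18 and 5.30 CPM in PC3 sensitive libraries. Their groups overlapped in DU145 and not in PC3. HIST3H2A, an H2A gene of the small chromosome 1 cluster, had 1.67 and 0.778 CPM in DU145 resistant against 1.78 and 3.68 CPM in DU145 sensitive libraries (adjusted p = 0.0605, edgeR), and 10.99 and 10.3 CPM in PC3 resistant against 13.9 and 14.5 CPM in PC3 sensitive libraries (adjusted p = 0.286).

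The other H1 and H3 genes among the 3 with most counts of their class were scarce, except HIST1H3E, which was scarce in DU145 only. HIST1H1E had 9 and 26 counts in DU145 resistant against 33 and 28 in DU145 sensitive libraries, and 21 and 33 in PC3 resistant against 11 and 19 in PC3 sensitive libraries. HIST1H1B had 17 and 13 counts in DU145 resistant against 7 and 5 in DU145 sensitive libraries. In PC3 it had 9 and 10 counts in resistant against 4 and 0 in sensitive libraries. Its resistant libraries lay above its sensitive ones in both lines, but it passed the low-count filter only through the DU145 resistant libraries. Its log2 fold change was the largest above 0 in DU145 (1.35 ± 0.72 SE, adjusted p = 0.19, edgeR). In PC3 the log2 fold change of HIST1H1B was 1.80 ± 0.91 (SE, adjusted p = 0.148, edgeR). HIST1H3B had 28 and 39 counts in DU145 resistant against 21 and 65 in DU145 sensitive libraries, and 17 and 11 in PC3 resistant against 18 and 19 in PC3 sensitive libraries. No test called any of these, and HIST1H3E overlapped between resistant and sensitive libraries in both lines, at 0.117 and 0.346 against 0.111 and 0.489 CPM in DU145 and 2.72 and 5.29 against 4.72 and 5.96 CPM in PC3.

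The change was tested for a difference between lines by an interaction contrast of the same fit, PC3 minus DU145. Of the 36 members, 4 were lower (11.1%) and 0 higher at an adjusted p under 0.05, where 15.9% of all tested genes were lower and 18.5% higher; with no adjustment 6 were lower and 1 higher at p under 0.05, and DESeq2 gave 4 lower and 0 higher. The 4 were HIST1H2BG at -2.24 ± 0.44 (SE, adjusted p = 0.00306, edgeR), HIST1H2AE at -1.81 ± 0.50 (adjusted p = 0.0184), HIST2H4B at -1.35 ± 0.37 (adjusted p = 0.0161) and HIST1H1C at -0.62 ± 0.21 (adjusted p = 0.0433). The first was kept whichever library was left out, HIST1H2AE and HIST2H4B in 6 of 8 such fits, and HIST1H1C in 2 of 8. For the other members called in only 1 line, the difference between lines did not pass the test.

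The sensitive lines were also compared with each other, a comparison that, like the genes named for it, was chosen after the data were seen. Between PC3 sensitive and DU145 sensitive cells, 12 of the 36 members were higher in PC3 (33.3%) and 5 lower (13.9%). Among all tested genes 28.6% were higher and 29.2% lower, so the first share is near that of all genes and the second below it. The 5 include HIST1H3G, which passed the low-count filter only through its level in DU145 sensitive libraries. The 12 include HIST1H3C, HIST1H2BH, HIST1H4E and HIST2H2AC, which passed that filter only through PC3 libraries. Their higher level in PC3 is therefore a description. HIST1H2BG had the lowest adjusted p of the 12, at 10.2 and 15.1 CPM in PC3 sensitive against 0.417 and 0.489 CPM in DU145 sensitive libraries (log2 fold change 4.85 ± 0.33 SE, adjusted p = 6.55e-07, edgeR). HIST1H3E, an H3 gene, had 4.72 and 5.96 CPM in PC3 sensitive against 0.111 and 0.489 CPM in DU145 sensitive libraries (4.21 ± 0.59, adjusted p = 0.000126). HIST3H2A followed at 2.44 ± 0.38 (adjusted p = 0.000259).

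Some members were found in 1 line and hardly in the other. Each of those named here passed the low-count filter only through libraries of the line where it was found, so the values are a description. HIST1H3C had 45 and 31 counts in PC3 sensitive libraries and 0 in all DU145 libraries, which makes it at least 27.1-fold higher in PC3 sensitive cells against a floor of 3 counts over the 2 DU145 sensitive libraries. HIST1H2BH had 101 and 81 counts in PC3 sensitive against 0 and 1 in DU145 sensitive libraries, a ratio of 194 with a 95% exact counting interval of 34.4 to 7718. HIST1H4E had 55 and 63 counts in PC3 sensitive against 0 and 3 in DU145 sensitive libraries, a ratio of 42.0 with an interval of 14.03 to 207. In the other direction, HIST1H3G was at least 18.4-fold lower in PC3 sensitive cells, where it had 0 counts, than in DU145 sensitive cells.

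HIST1H1C was also lower in PC3 sensitive than in DU145 sensitive cells (log2 fold change -1.36 ± 0.15 SE, adjusted p = 2.38e-05, edgeR), as were HIST1H2BN (-1.36 ± 0.30, adjusted p = 0.00287), HIST2H4B (-1.16 ± 0.25, adjusted p = 0.00241) and HIST2H2BE (-0.85 ± 0.28, adjusted p = 0.0213).

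**Figure D4:**
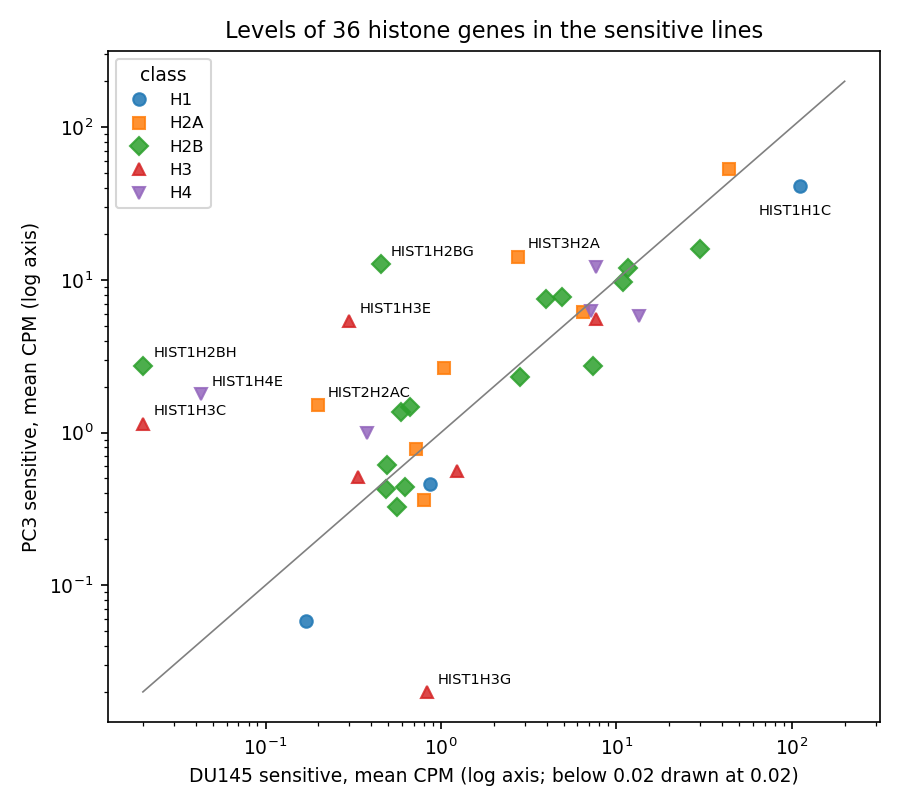
Mean CPM of the 36 tested members in PC3 sensitive (vertical, log axis) against DU145 sensitive cells (horizontal, log axis), by class; the line marks equal levels and means under 0.02 CPM are drawn at 0.02. HIST1H3C, HIST1H2BH, HIST1H4E, HIST1H3E and HIST1H2BG lie far above the line, HIST1H3G far below it.

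Transcript ends were compared with the stem-loop, a property the choice of members did not use. Of the members with a GENCODE transcript and a stem-loop, 17 had an annotated transcript that runs more than 50 bases past it, reaching 430 to 37155 bases further along the genome, and 49 ended at it. A poly(A) signal (AATAAA or ATTAAA) was found in the last 50 bases of 11 of the 17 and of 2 of the 49, where 46.4% of 89061 protein-coding transcripts held it. The 17 genes had a median of 1.56 CPM per kb and 51.4% of all histone CPM, and the 49 a median of 0.184 CPM per kb and 47.5%. HIST1H1C, whose only annotated transcript ends 4 bases after the stem-loop, was the highest of all.

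Members of both kinds were called lower. Among genes with a longer transcript, 6 of 14 tested fell in DU145 and 7 in PC3, with median log2 fold changes of -0.80 and -1.13. Among genes ending at the stem-loop, 4 of 19 tested fell in DU145 and 7 in PC3, with medians of -0.57 and -0.71. Over all tested genes 15.4% fell in DU145 and 17.0% in PC3. The 4 include HIST1H3G, which passed the low-count filter only through its level in DU145 sensitive libraries. Without it the DU145 share of this kind is near that of all genes. Of the 19 called members, HIST1H2AC, HIST1H2BC, HIST1H2BD, HIST1H2BE, HIST2H2BE, HIST2H2BF, HIST1H3H, HIST1H4H and HIST2H4B have a longer transcript, and HIST1H1C, HIST1H2AG, HIST1H2AE, HIST1H2AI, HIST1H2AM, HIST2H2AC, HIST1H2BG, HIST1H2BH, HIST1H3G and HIST1H4J end at the stem-loop. The difference between the kinds was not tested.

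The RefSeq promoters (GRCh38.p14, the 250 bases before the start site) were matched for 61 members and searched for motifs on both strands. The counts cover 59 of them. HIST2H3PS2, a pseudogene by its symbol but annotated as protein-coding, was left out. So was HIST1H3D, whose RefSeq window lies over 1000 bases from its own annotated start. ATTTGCAT, the octamer that POU2F1 binds and that is best known from H2B promoters, was in 11 of 16 H2A and 9 of 13 H2B promoters and in 0 of 6 H1, 0 of 11 H3 and 0 of 13 H4 promoters, where 1.63% of 35116 promoters of the same length held it. CCAAT was in every H1, H2A, H2B and H3 promoter and in 3 of 13 H4 promoters (32.0% of all promoters), and TATAAA in 3 of 6 H1, 12 of 16 H2A, 9 of 13 H2B, 9 of 11 H3 and 7 of 13 H4 promoters (10.7% of all). Windows of a facing H2A and H2B gene overlap, so these counts are not independent. The promoters of HIST2H2BE, HIST1H2AC and HIST2H4B, which fell in both lines, are printed 5′ to 3′ with every match on either strand in capitals; the H4 promoter holds none of the 3 motifs.
HIST2H2BE, chr1:149886683-149886932, minus strand: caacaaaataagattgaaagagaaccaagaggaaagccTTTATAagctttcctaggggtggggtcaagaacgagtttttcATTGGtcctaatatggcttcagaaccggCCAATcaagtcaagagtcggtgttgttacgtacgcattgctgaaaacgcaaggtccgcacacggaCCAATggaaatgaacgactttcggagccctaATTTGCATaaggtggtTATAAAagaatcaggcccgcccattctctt
HIST1H2AC, chr6:26123922-26124171, plus strand: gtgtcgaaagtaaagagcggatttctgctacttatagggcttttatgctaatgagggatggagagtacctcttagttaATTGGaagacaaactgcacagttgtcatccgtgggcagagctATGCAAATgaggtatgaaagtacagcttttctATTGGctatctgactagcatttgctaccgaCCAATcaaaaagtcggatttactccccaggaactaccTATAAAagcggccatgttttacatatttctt
HIST2H4B, chr1:149861160-149861409, minus strand: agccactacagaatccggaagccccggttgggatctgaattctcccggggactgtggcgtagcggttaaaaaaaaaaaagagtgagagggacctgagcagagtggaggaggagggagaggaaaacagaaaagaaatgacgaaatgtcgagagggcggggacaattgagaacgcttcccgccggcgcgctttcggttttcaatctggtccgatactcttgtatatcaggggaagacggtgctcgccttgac

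H2A and H2B genes often face each other across a shared promoter, and 12 pairs of protein-coding members had annotated starts 170 to 251 bases apart, head to head. Both genes were tested in 7 pairs. In 3 pairs both fell in PC3 (shares of single genes called there are 38.9% of members and 17.0% of all tested genes), and in 0 pairs both fell in DU145. HIST1H2AC and HIST1H2BC start 219 bases apart and had log2 fold changes of -1.26 and -1.59 in PC3, and in DU145 HIST1H2AC fell by 1.34 while HIST1H2BC had -0.85 ± 0.37 (SE, adjusted p = 0.117, edgeR). HIST1H2AE and HIST1H2BG start 233 bases apart and had -1.50 and -1.51 in PC3, against 0.30 ± 0.36 and 0.74 ± 0.36 in DU145 (adjusted p = 0.579 and 0.156). HIST2H2AC and HIST2H2BE start 236 bases apart and both fell in PC3, at -1.86 and -0.89 on the log2 scale, while in DU145 HIST2H2BE fell by 1.71 and HIST2H2AC, with 1 to 8 counts per library, had -0.57 ± 0.81 (SE, adjusted p = 0.649, edgeR). In the other 4 pairs no more than 1 gene was called in a line. HIST1H2AG fell in DU145 and its partner HIST1H2BJ, 248 bases away, had -0.07 ± 0.31 there (adjusted p = 0.908).

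The pairs with lower counts gave wide errors. HIST1H2AM fell in DU145, where HIST1H2BO had -0.95 ± 0.62 (adjusted p = 0.292), and in PC3 the 2 genes had -0.04 ± 0.52 and -1.30 ± 0.64. HIST1H2BO would not have passed the low-count filter without the PC3 sensitive libraries, so its PC3 value is a description. HIST1H2AI fell in PC3, where HIST1H2BL had -0.19 ± 0.51 (adjusted p = 0.811), and in DU145 the 2 genes had -0.85 ± 0.53 and -1.49 ± 0.60. HIST3H2A and HIST3H2BB had -1.13 ± 0.41 and -0.39 ± 0.57 in DU145, and -0.51 ± 0.35 and -0.66 ± 0.51 in PC3, with no call. Within these pairs the 2 genes' changes were not tested against each other.

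Other genes of the chromosome 6 cluster were read as neighbours. The HIST1 genes span chr6:25723397-27893891, where 29 histone genes and 26 other genes were tested. RP1-34B20.21, counted among the 26, has exons over the members HIST1H2AD and HIST1H3D on the same strand. Its reads may therefore not be separable from theirs, and it was not called in either line. Over all tested genes, as given above, 15.4% fell and 12.4% rose in DU145, and 17.0% fell and 18.6% rose in PC3. In DU145, 7 of the histone genes fell, HIST1H3G among them, and 0 rose (median -0.38). HIST1H3G passed the low-count filter only through its level in DU145 sensitive libraries. Of the others in DU145, 5 fell (19.2%, near the share of all genes) and 1 rose (median -0.24). In PC3, 11 of the histone genes fell and 0 rose (median -0.81), and 1 of the others fell (3.85%) and 3 rose (11.5%), both below the shares of all genes (median 0.20).

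The neighbours that moved in DU145 included TRIM38, a TRIM family ubiquitin ligase (log2 fold change 5.34 ± 0.25 SE, adjusted p = 4.70e-07, edgeR), POM121L2 (-2.99 ± 0.61, adjusted p = 0.00465), PRSS16, a serine protease gene (-1.90 ± 0.29, adjusted p = 0.00082), and the zinc finger pseudogene ZNF204P (-1.52 ± 0.30, adjusted p = 0.00407). In PC3, LINC00240 was at 2.99 ± 0.71 (adjusted p = 0.00782), BTN3A2 at 0.97 ± 0.33 (adjusted p = 0.043), PRSS16 at 0.92 ± 0.29 (adjusted p = 0.0294) and HMGN4, a nucleosome-binding protein gene, at -0.42 ± 0.13 (adjusted p = 0.0321).

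**Figure D5:**
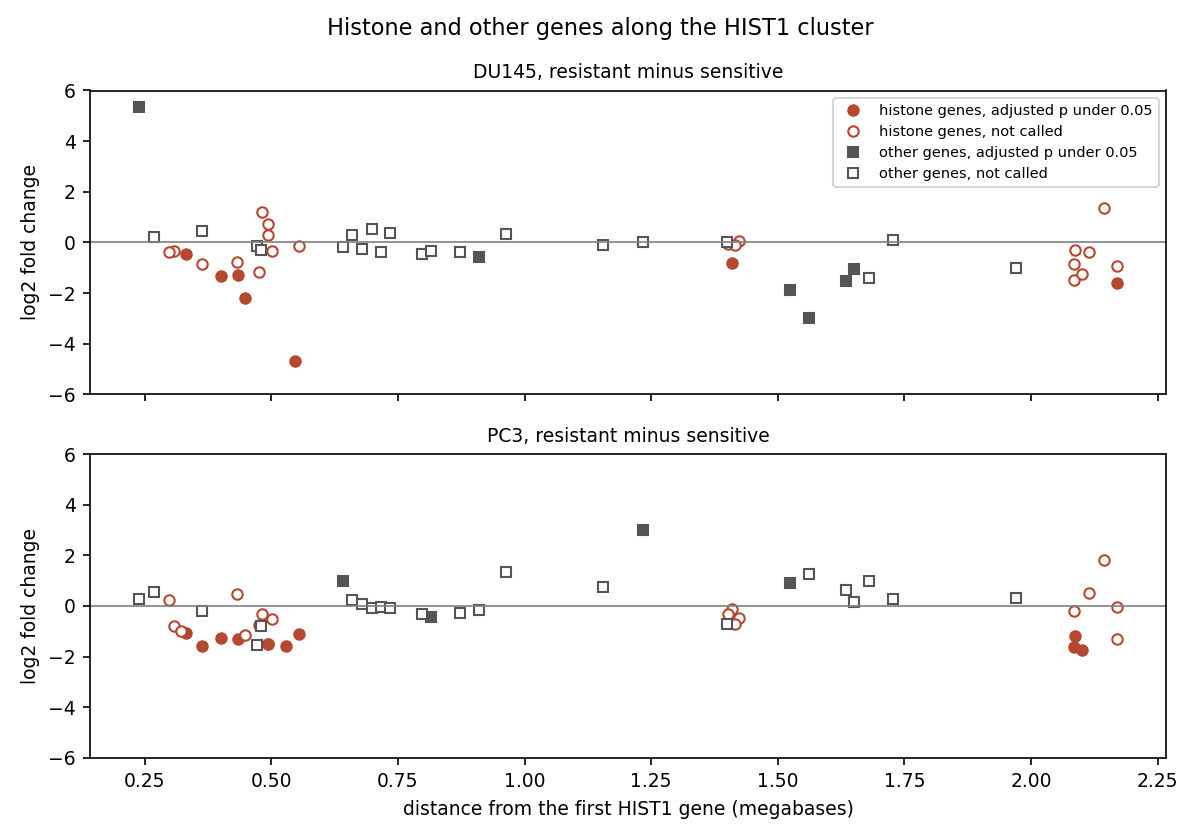
Log2 fold change of resistant over sensitive cells (vertical axis) against distance in megabases from the first HIST1 gene of chromosome 6 (horizontal axis), for DU145 (above) and PC3 (below); circles are histone genes, squares the other tested genes, and filled symbols had an adjusted p under 0.05. The filled circles all lie below 0, and among the squares TRIM38 stands at 5.34 in DU145.

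Genes that make, handle or replace these histones were read from lists, against the same shares of all tested genes (15.4% lower and 12.4% higher in DU145, 17.0% lower and 18.6% higher in PC3). Of 12 variant histones, which are also made outside S phase, 4 fell (33.3%) and 1 rose (8.33%) in DU145 (median -0.27). In PC3, 2 of them fell (16.7%, near the share of all genes) and 1 rose (8.33%), with a median of -0.06. The linker variant H1FX fell by 1.44 in DU145 (adjusted p = 8.94e-05, edgeR), H2AFV by 0.84 (adjusted p = 0.00584), H1F0 by 0.68 (adjusted p = 0.0267) and H3F3B by 0.55 (adjusted p = 0.0322), and H2AFY, a macroH2A gene, rose by 0.42 (adjusted p = 0.0448). In PC3, H2AFY2, the other macroH2A gene, rose by 0.94 (adjusted p = 0.00129), while H2AFJ fell by 0.81 (adjusted p = 0.00672) and H2AFY by 0.74 (adjusted p = 0.00229). H2AFZ had 0.12 ± 0.18 (SE) with adjusted p = 0.668 in DU145, and -0.48 ± 0.18 with adjusted p = 0.0666 in PC3.

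The list of histone mRNA 3′ end processing and decay held 23 genes, among them general mRNA 3′ end factors such as WDR33 and CPSF1. Of the 23, 6 rose (26.1%) and 2 fell (8.70%) in DU145 (median 0.27). In PC3, 3 rose (13.04%) and 9 fell (39.1%), with a median of -0.09. SLBP had -0.09 ± 0.18 (SE) in DU145 (adjusted p = 0.768, edgeR) and 0.27 ± 0.18 in PC3 (adjusted p = 0.278). In DU145, CSTF2 rose by 0.81 (adjusted p = 0.00748), LSM10, part of the U7 particle that cuts histone pre-mRNA, by 0.73 (adjusted p = 0.00769) and ZNF473 by 0.57 (adjusted p = 0.0257), and CPSF1 fell by 0.62 (adjusted p = 0.00532). In PC3, WDR33 fell by 1.30 (adjusted p = 4.07e-05), CPSF1 by 1.00 (adjusted p = 0.000224), ZNF473 by 0.89 (adjusted p = 0.00179) and LSM10 by 0.67 (adjusted p = 0.00885). LSM11, also of the U7 particle, rose by 0.82 there (adjusted p = 0.00294). ERI1 fell by 0.48 in DU145 (adjusted p = 0.0355) and by 0.73 in PC3 (adjusted p = 0.00444, edgeR). NCBP1 rose by 0.49 in both lines (adjusted p = 0.0224 in DU145 and 0.0184 in PC3).

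Of 13 regulators of histone gene transcription, 1 fell (7.69%) and 0 rose in DU145 (median 0.10), and 4 fell (30.8%) and 1 rose (7.69%) in PC3 (median -0.15). CDKN1B, a CDK inhibitor, fell by 0.90 in DU145 (adjusted p = 0.00202, edgeR). In PC3, CDKN1A, another CDK inhibitor, rose by 1.27 (adjusted p = 0.00135), and YY1 fell by 0.79 (adjusted p = 0.00121), CDKN1B by 0.74 (adjusted p = 0.00501) and CDK2 by 0.63 (adjusted p = 0.00812).

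Of 21 histone chaperone and import genes, 1 rose and 1 fell in DU145 (4.76% each, below the shares of all genes; median 0.12), and 2 rose (9.52%) and 4 fell (19.05%, near the share of all genes) in PC3 (median -0.22). NAP1L1 rose by 0.55 in DU145 (adjusted p = 0.0149, edgeR) and CABIN1 fell by 0.45 there (adjusted p = 0.0306). In PC3, NAP1L4 fell by 1.15 (adjusted p = 0.000525), TONSL by 0.92 (adjusted p = 0.000331) and NAP1L1 by 0.66 (adjusted p = 0.00449), while UBN1 rose by 0.66 (adjusted p = 0.00469).

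Of 20 genes of DNA replication, the process that clustered histone genes serve, 1 rose and 1 fell in DU145 (each 5%, below the shares of all genes; median 0.21), and 5 rose (25%) and 1 fell (5%) in PC3 (median 0.23). POLA1, a DNA polymerase subunit gene, rose by 0.69 in DU145 (adjusted p = 0.0447, edgeR) and RFC2 fell by 0.68 there (adjusted p = 0.0244). In PC3, RFC2 rose by 1.23 (adjusted p = 0.00082), CDC45 by 1.10 (adjusted p = 0.00369), MCM4 by 1.01 (adjusted p = 0.00831) and GINS2 by 0.94 (adjusted p = 0.0351), and RRM1 fell by 0.81 (adjusted p = 0.007). The direction of the median was thus positive for the replication genes and negative for the clustered histone genes in both lines, a description with no test of the lists against each other.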

How the data were processed

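Bulk RNA was sequenced from docetaxel-resistant and docetaxel-sensitive DU145 and PC3 cells, 2 libraries per group, with the SMART-seq mRNA Library kit. The deposited values were raw read counts per gene, which the authors made, per the submitters' processing notes, by aligning reads to hg38 with Bowtie. The counter, annotation, strand setting and treatment of multi-mapping reads were not given in the sources used here, so reads of near-identical histone genes may be split or lost. Samples were grouped by their labels. Genes were filtered with filterByExpr, scaled by TMM and tested in 1 edgeR quasi-likelihood fit over the 8 libraries (edgeR 4.0.16 in R 4.3.3), with adjustment over all 20238 tested genes; SE is the log2 fold change over the square root of F. The common coefficient of biological variation was 17.1%, with 4 residual degrees of freedom. CPM were counts over the library total. Alternatives were DESeq2 (1.42.0), RLE scaling, other low-count filters, 1 line alone, a replicate block, an adjusted p under 0.01 and leaving out each library. The code was tested on simulated data.

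The members and gene lists were chosen with earlier results of these data known, and the contrast between the sensitive lines was added after the files were seen. Named were members called in either line, the 3 with most counts per class, tested divergent pairs, and at most 4 called genes of each other list and line, with SLBP and H2AFZ. Pairs are protein-coding members whose annotated starts face each other within 1000 bases. H2AFY in DU145, LSM10 in PC3, RRM1, ERI1 and NCBP1 were added after their values were seen. Positions and exons came from GENCODE 44 for 82 members and from RefSeq GRCh38.p14 for 7; exon length is the union of annotated exons.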

Additional observations from a re-analysis of the deposited data

Results flagged for a closer look

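In 4 genes the change with resistance differed between the 2 lines by the interaction test, with the PC3 difference the more negative: HIST1H2BG by -2.24 on the log2 scale, HIST1H2AE by -1.81, HIST2H4B by -1.35 and HIST1H1C by -0.62. These 4 are 11.1% of the tested members, below the 15.9% of all tested genes with such a difference, and HIST1H1C passed in 2 of 8 fits that left out 1 library. HIST1H2BG and HIST1H2AE were lower in PC3 resistant than in PC3 sensitive cells, and their DU145 values did not pass the test, whereas HIST2H4B and HIST1H1C fell in both lines, with their DU145 calls kept in 2 and 1 of those 8 fits.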

How the results depend on the processing

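No alternative called a member higher in resistant cells of either line. The count of members lower in DU145 (10) was 3 at an adjusted p under 0.01, 6 with the line fitted alone and 3 to 10 when 1 library was left out; the PC3 count (14) was 8 at an adjusted p under 0.01 and 7 to 15 when 1 library was left out. For the difference between lines, 4 members were lower, 1 at an adjusted p under 0.01 and 1 to 4 with 1 library left out, and 0 to 1 were then higher. Between the sensitive lines the 12 higher members became 6 when 1 CPM in 4 libraries was required. TMM and RLE scaling of the summed levels in PC3 gave log2 ratios of -1.02 for H1 under both, and -0.99 for H2A under both. Without the highest member of the class the H1 sums gave -0.13 in DU145 and 0.18 in PC3, the PC3 H2A sum -0.46, and the H3 sums -0.85 in DU145 and -0.41 in PC3. Leaving out 1 library turned the sign of 6 uncalled values of facing pairs: HIST1H2BJ (-0.30 to 0.23), HIST2H2AC (-2.69 to 0.33) and HIST3H2BB (-0.90 to 0.46) in DU145, and HIST1H2AM (-0.43 to 0.32), HIST1H2BL (-0.85 to 0.25) and HIST3H2BB (-1.15 to 0.0505) in PC3. The cause of these shifts was not tested. With the replicate number as a block, 11 members were lower in DU145, 15 in PC3 and 5 for the difference; same-numbered libraries correlated at 0.32 in DU145 and 0.09 in PC3, so the numbers were not taken as pairs. Of the 89 members, 53 had too few counts to be tested.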
